A study of Mus musculus with 4 samples.

Results

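The genes described here encode the coats, cargo receptors and tethers that carry newly made proteins from the endoplasmic reticulum (ER) through the Golgi. They were taken by symbol from the RefSeq genes of GRCm38.p6, the mouse assembly also known as mm10. Protein-coding genes were included whose symbol begins with Sec and a digit (29 genes), with Trappc (15 genes) or with Tmed and a digit (11 genes), together with Copa, Copb1, Copb2, Cope, Copg1, Copg2, Copz1 and Copz2 (8 genes). This gave 63 of 21887 protein-coding genes. The symbol rule also brought in genes outside the transport machinery, namely Sec1, a fucosyltransferase gene, and the Sec14-like genes Sec14l1 to Sec14l5, which encode lipid-binding proteins. These 6 are described last, and the other 57 form the machinery proper.

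SHP (small heterodimer partner, encoded by Nr0b2) is a nuclear receptor without a DNA-binding domain that represses transcription through the factors it binds. Chromatin bound by SHP was immunoprecipitated and sequenced from jejunum and ileum of SHP-KO mice, which lack the antigen, and of C57BL/6 mice as wild type (WT). Mice of both genotypes were 8 to 12 weeks old, had been fasted for 12 h, and had then eaten normal chow again for 4 h. The labels give 3 sets of immunoprecipitated and input DNA, each pooled from 3 mice, and do not describe the knockout allele. The list of SHP-KO peaks held 7 peaks and that of WT peaks held 5775, and 1 list for each genotype was analysed. The input samples were not analysed here. Because whole jejunum and ileum were used, the cell types that carry a peak cannot be told apart.

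Proteins that will be secreted or placed in membranes enter the ER through the SEC61 channel, where signal peptidase cuts off the signal peptide. COPII coats then bud vesicles at ER exit sites, p24 proteins help to select the cargo, TRAPP complexes tether vesicles to the Golgi, and COPI coats return material to the ER. In enterocytes this route also carries chylomicrons, the lipoprotein particles that export dietary fat after a meal.

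A gene was counted as occupied where the summit of a WT peak, its point of highest signal, lay within 5 kb of either end of the gene. Of the 63 genes, 26 were occupied (41.3%, 95% exact interval 29.0 to 54.4, which covers counting error only). Among all protein-coding genes the share was 26.4% (5778 of 21887). Within the machinery proper it was 25 of 57 (43.9%, 30.7 to 57.6). Since the genes share a pathway and no replicate list was at hand, no test of the difference in shares was made, and the shares are a description of 1 list. No SHP-KO summit lay within 5 kb of any of the 63 genes, and the nearest one was 1127114 bp from a gene end. With 7 SHP-KO peaks in all, only 4 of the 21887 protein-coding genes had one within 5 kb, and 23 of the 63 genes lay on a chromosome with an SHP-KO peak, so nothing is read from the absence. The SHP-KO list was filtered in another way than the WT list, so the absence of its peaks there does not show that each WT peak depends on SHP.

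The occupied genes had a median enrichment value of 6.25 (range 4.41 to 8.19), and all 5778 occupied protein-coding genes had a median of 5.73 (quartiles 5.01 and 6.48). The 95% interval of the median of the 26 genes, taken from the order of their values, was 5.58 to 6.71. It treats genes of the same list and pathway as independent, and the 26 genes are among those that give 5.73. The interval therefore describes the spread of the 26 values only, and the difference in medians was not tested. The enrichment value is the authors' own signal for a peak, its scale is not stated, and where a gene had several summits the highest was taken. Of the 26 genes, 17 lay above the median of all occupied genes, and 6 (23.1%) had a peak in the top 10% of the list, against 647 of 5778 occupied genes (11.2%). Sec14l1, which is outside the machinery proper, was among both the 17 and the 6. The 26 genes had a median −log10 p of 16.3, against 15.4 for all occupied genes. Their peaks were 386 to 1173 bp wide with a median of 869.5 bp, against a median of 1006 bp for all occupied genes. All of these values lay well inside the range of all occupied genes, whose enrichment values ran from 2.16 to 37.2. Read depth was unknown, so no error could be given for the value of a single peak.

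**Figure D1:**
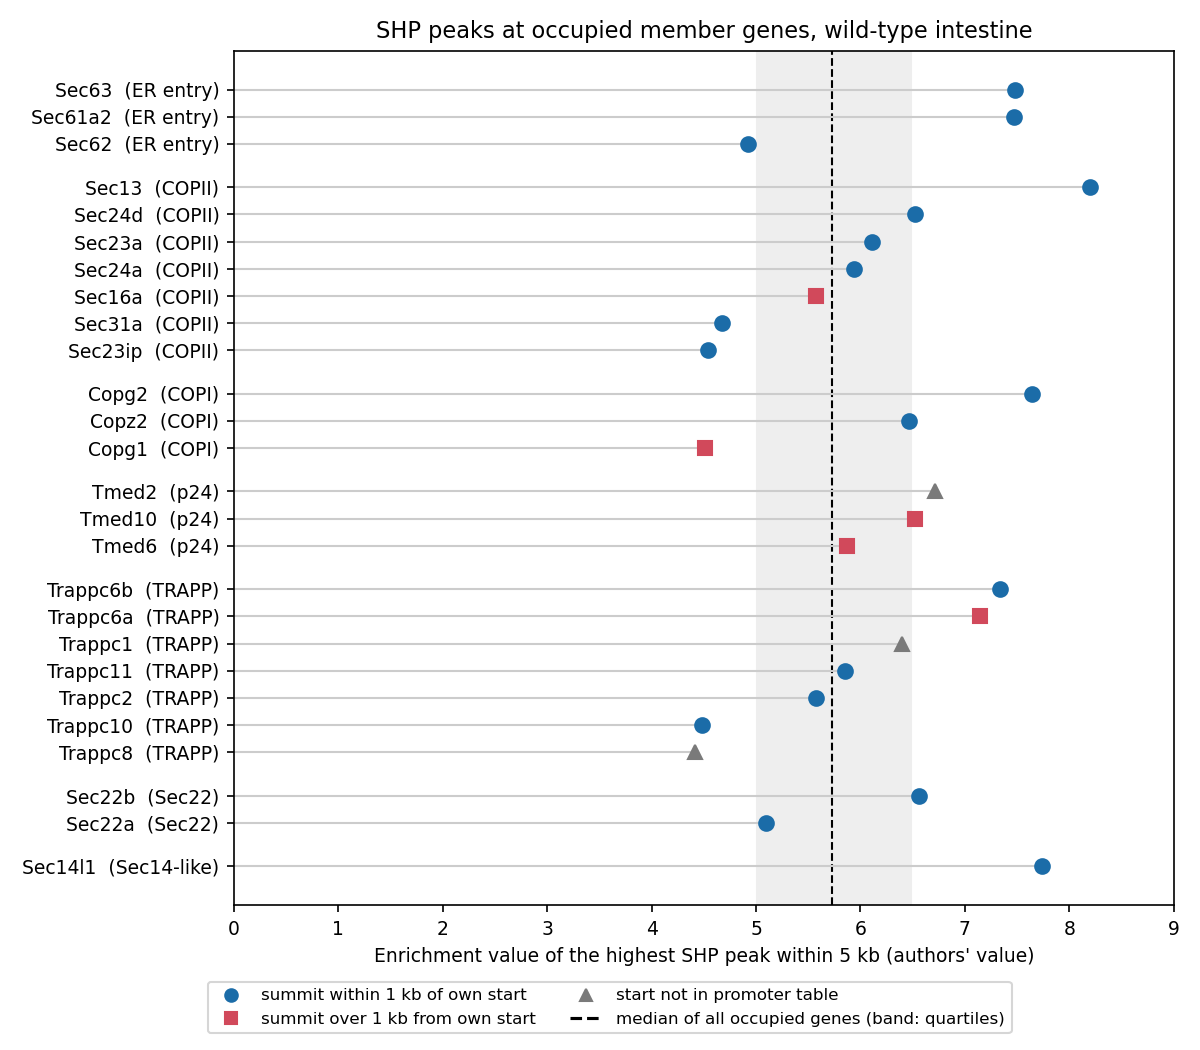
Enrichment value (x axis, the authors' value, no unit) of the highest WT SHP peak within 5 kb of each of the 26 occupied genes, grouped by role. Circles mark summits within 1 kb of the gene's own start, squares those farther away, and triangles genes whose start was not in the promoter table. The dashed line is the median of all occupied genes (5.73) and the band its quartiles, and Sec13 stands highest at 8.19.

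At the entry to the ER, 3 of 8 genes were occupied, 2 of which encode partners of the channel and 1 a subunit of it. Sec63, whose J domain recruits the chaperone BiP to the channel, had the strongest of these peaks, with an enrichment value of 7.48, a −log10 p of 26.2 (the highest of the 26 genes) and a summit 168 bp downstream of its start. Sec61a2, one of the pair of genes for the pore-forming alpha subunit, had a value of 7.47 with the summit 214 bp downstream. Sec62, which helps small proteins through the channel and also serves as a receptor for the autophagy of ER, had 4.93, rank 4313 of 5775, with the summit 372 bp downstream. The other alpha subunit gene, Sec61a1, and the genes of the small subunits, Sec61b and Sec61g, had no summit within 5 kb, and their nearest summits were 205832, 453234 and 243680 bp away. The signal peptidase genes Sec11a and Sec11c were not occupied either, with nearest summits at 14104 and 369876 bp. The channel subunits without a peak therefore lay far outside the window and not just beyond it.

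The 250 bases before the start of Sec63 are shown because its peak was the strongest of the ER entry group (chr10:42761246-42761495, plus strand, GRCm38.p6, from RefSeq). Here and in the following promoters the sequence runs 5′ to 3′ on the strand of the gene, and capitals mark matches to the motifs spelled out further on. In these bases of Sec63 there are 4 GC boxes and 1 CCAAT box, and all 250 bases shown lie under the peak.
Sec63: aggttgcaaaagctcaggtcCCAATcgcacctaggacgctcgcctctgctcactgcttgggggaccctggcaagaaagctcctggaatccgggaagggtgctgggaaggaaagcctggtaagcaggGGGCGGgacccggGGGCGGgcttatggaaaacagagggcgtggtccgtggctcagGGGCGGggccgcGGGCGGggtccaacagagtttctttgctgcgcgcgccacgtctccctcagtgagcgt

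COPII genes were occupied at 7 of 12 members (58.3%, 27.7 to 84.8). Sec13, an outer-coat protein that also belongs to the nuclear pore and to the nutrient-sensing GATOR complex, had the highest enrichment value of all 63 genes, 8.19 (rank 131 of 5775). Its peak, at chromosome 6:113740249–113740912, had its summit 97 bp upstream of the start. Sec31a, the outer-coat partner of Sec13, had 4.67 with the summit 21 bp upstream of a start. The values of these partners were thus at the top and near the bottom of the COPII range of 4.54 to 8.19.

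The inner coat of COPII consists of a SEC23 protein, which activates the GTPase activity of SAR1, and a SEC24 protein, which binds cargo. Sec23a was occupied with 6.11 and a summit 149 bp downstream of its start, while the nearest summit to its paralog Sec23b was 225289 bp away. Of the SEC24 genes, Sec24d had 6.52 with the summit 43 bp upstream of a start, and Sec24a had 5.94 with the summit 680 bp downstream. Sec24b and Sec24c were not occupied, with nearest summits 151630 and 7993 bp away. Sec23ip, which encodes a phospholipase-like protein bound by SEC23, had 4.54 with the summit 41 bp upstream of its start. So 1 of the 2 Sec23 genes and 2 of the 4 Sec24 genes were occupied, each of them at its own start.

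Sec16a, the scaffold of ER exit sites, counted as occupied with 5.58, but the summit lay 193 bp outside the end of the gene that is not its start. It was 35978 bp from the start of Sec16a and 19 bp from that of the neighbour Inpp5e, a phosphoinositide phosphatase gene. Sec16b, the shorter scaffold, was not occupied by the rule, as its nearest summit lay 19512 bp from a gene end. That summit was inside the gene, 75 bp downstream of an internal RefSeq start of Sec16b, with an enrichment value of 6.42. Sec31b, the paralog of Sec31a, had no summit nearer than 17088 bp. The rule based on gene ends therefore counts Sec16a and not Sec16b, and a rule based on starts does the opposite.

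The promoter of Sec13 is shown as that of the highest value (chr6:113740682-113740931, minus strand, GRCm38.p6, from RefSeq). The bases shown hold 2 ETS motifs and 1 GC box, and 231 of the 250 bases shown lie under the peak.
Sec13: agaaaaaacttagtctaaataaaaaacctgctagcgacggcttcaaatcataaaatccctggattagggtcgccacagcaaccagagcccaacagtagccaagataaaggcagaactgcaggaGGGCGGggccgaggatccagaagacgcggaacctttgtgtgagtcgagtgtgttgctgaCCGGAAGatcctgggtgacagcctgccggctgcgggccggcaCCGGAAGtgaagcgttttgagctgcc

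COPI, the coat of retrograde vesicles, had 3 of 8 genes occupied. Copg2, the gamma-2 subunit, had 7.64 (rank 300 of 5775, −log10 p 24.1) with the summit 100 bp downstream of its start. Copz2, the zeta-2 subunit, had 6.46 with the summit 56 bp downstream. Copg1, the gamma-1 subunit, counted with 4.51, but that summit lay 26305 bp from its start, beyond the other end of the gene, and 269 bp from the start of Hmces. The paralog Copz1 had no summit nearer than 66832 bp. Of the subunits with a single gene here, Copa (alpha), Copb1 (beta), Copb2 (beta-prime) and Cope (epsilon) were not occupied, with nearest summits at 25853, 701737, 366645 and 40308 bp. In both subunit pairs of COPI, the member with a peak at its own start was the second paralog, Copg2 and Copz2.

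The promoter of Copg2 is shown as that of the strongest COPI peak (chr6:30896795-30897044, minus strand, GRCm38.p6, from RefSeq). The bases shown hold 3 GC boxes, and 236 of the 250 bases shown lie under the peak.
Copg2: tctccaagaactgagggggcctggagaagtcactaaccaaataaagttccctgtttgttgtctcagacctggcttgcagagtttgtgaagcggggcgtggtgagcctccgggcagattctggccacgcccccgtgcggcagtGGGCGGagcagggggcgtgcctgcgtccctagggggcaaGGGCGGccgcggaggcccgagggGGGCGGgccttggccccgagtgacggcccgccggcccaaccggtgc

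The p24 family of cargo receptors had 3 of 11 genes occupied (27.3%, 6.02 to 61.0), close to the share of all genes. Tmed2, the single beta-type p24 gene, had 2 summits within 5 kb, with enrichment values of 6.71, 44 bp outside one end of the gene, and 5.41, 2354 bp outside the other end. It was the only 1 of the 26 occupied genes with more than 1 summit, against 667 of 5778 genes (11.5%). Tmed10, the delta-type receptor, had 6.52, but that summit lay 1375 bp beyond the end opposite its start and 123 bp from the start of Nek9, a mitotic kinase gene. Tmed6 had 5.88 with the summit 4901 bp outside the gene and 154 bp from the start of Cog8, a subunit of a Golgi tethering complex, with Nip7 sharing the summit. None of the 8 Tmed genes with a start in the promoter table had a summit within 1 kb of it. Tmed1, Tmed3, Tmed4, Tmed5, Tmed7, Tmed8, Tmed9 and Tmed11 were not occupied, with nearest summits from 16992 bp (Tmed4) to 349527 bp (Tmed3).

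TRAPP genes were occupied at 7 of 15 members (46.7%, 21.3 to 73.4). TRAPP complexes tether vesicles and activate Rab GTPases, and a shared core of small subunits is joined by larger ones in each complex. Among the core subunits, Trappc6b had the strongest peak with 7.34 (rank 467 of 5775, summit 87 bp downstream of its start). Its paralog Trappc6a had 7.14, but that summit was 4042 bp outside the gene, 11517 bp from its start and 1456 bp from the start of Nkpd1. Trappc1 had 6.39 with the summit 722 bp outside the gene, also within 5 kb of Cntrob and Kcnab3. Trappc2, on the X chromosome, had 5.58 with the summit 84 bp upstream of its start and 33 bp from that of Ofd1, a gene of the centriole. The core subunits Trappc2l, Trappc3, Trappc3l, Trappc4 and Trappc5 were not occupied, with nearest summits at 23371, 6218, 172381, 24399 and 88749 bp.

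The larger TRAPP subunits differ between the complexes, TRAPPC9 and TRAPPC10 belonging to TRAPPII and TRAPPC8, TRAPPC11, TRAPPC12 and TRAPPC13 to TRAPPIII, which also acts in autophagy. Trappc11 had 5.85 with the summit 326 bp upstream of its start and 151 bp from that of Rwdd4a. Trappc10 had 4.48 with the summit 95 bp downstream of its start, and Trappc8 had 4.41 where the summit was 81 bp within the gene from its nearer end, the lowest value of the 26. Trappc9, Trappc12 and Trappc13 had no summit nearer than 634914, 54812 and 221303 bp. Each complex thus had members with and without a peak.

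The promoter of Trappc6b is shown as that of the strongest TRAPP peak at a gene's own start (chr12:59061473-59061722, minus strand, GRCm38.p6, from RefSeq). The bases shown hold 1 ETS motif and no GC box, and 139 of the 250 bases shown lie under the peak.
Trappc6b: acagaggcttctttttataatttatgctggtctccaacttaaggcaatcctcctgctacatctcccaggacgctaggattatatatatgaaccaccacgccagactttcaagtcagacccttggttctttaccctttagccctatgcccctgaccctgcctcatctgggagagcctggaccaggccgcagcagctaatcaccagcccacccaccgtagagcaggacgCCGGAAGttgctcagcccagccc

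Of the Sec22 genes, Sec22b, which encodes a SNARE that fuses vesicles between ER and Golgi, had 6.56 with the summit 115 bp downstream of its start. Its peak, 386 bp wide, was the narrowest of the 26. Sec22a, a relative that lacks the SNARE motif, had 5.10 with the summit 211 bp downstream of its start, and Sec22c, also without that motif, had no summit nearer than 13654 bp. The promoter of Sec22b is shown as that of the higher value (chr3:97900977-97901226, plus strand, GRCm38.p6, from RefSeq). The bases shown hold 1 GC box and 1 CCAAT box, and 136 of the 250 bases shown lie under the peak.
Sec22b: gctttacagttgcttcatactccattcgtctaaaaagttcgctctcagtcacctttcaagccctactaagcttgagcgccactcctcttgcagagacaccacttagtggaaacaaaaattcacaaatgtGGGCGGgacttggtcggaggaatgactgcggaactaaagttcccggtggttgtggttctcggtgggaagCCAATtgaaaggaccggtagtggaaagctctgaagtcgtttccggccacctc

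Among the genes brought in by name alone, Sec14l1 had 7.74 (rank 270 of 5775, −log10 p 25.4) with the summit 113 bp downstream of its start, the second highest enrichment value of the 63 genes. Sec14l2, Sec14l3, Sec14l4 and Sec14l5 were not occupied, with nearest summits at 16579, 56318, 47639 and 16391 bp. Sec1 had its nearest summit 5177 bp from a gene end, just outside the window. Another summit lay inside Sec1, farther from both of its ends. The promoter of Sec14l1 (chr11:117114918-117115167, plus strand, GRCm38.p6, from RefSeq) is shown for its high value. The bases shown hold 1 ETS motif and 2 GC boxes, and all 250 bases shown lie under the peak.
Sec14l1: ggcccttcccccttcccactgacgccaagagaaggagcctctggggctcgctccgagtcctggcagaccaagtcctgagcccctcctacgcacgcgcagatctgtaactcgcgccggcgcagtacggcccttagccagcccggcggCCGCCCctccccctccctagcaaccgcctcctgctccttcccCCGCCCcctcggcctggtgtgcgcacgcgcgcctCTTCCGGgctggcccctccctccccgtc

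The 37 genes that were not occupied had their nearest summit 5177 to 701737 bp away, with a median of 60159 bp, against 131894 bp for all protein-coding genes that were not occupied. Only 3 of them, Sec1, Trappc3 (6218 bp) and Sec24c (7993 bp), had a summit within 10 kb, and 13 had none within 100 kb. Just inside the window lay Tmed6 at 4901 bp and Trappc6a at 4042 bp. The occupied genes were longer than the others, with a median length of 35483.5 bp against 18129 bp. Over all protein-coding genes, occupied and not, these medians were 22176 and 15603 bp, and the part of gene length in occupancy was not tested.

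The share of the 63 genes was above that of all genes in each of the following settings. Within 1 kb of a gene end 21 of the 63 genes had a summit, against 20.7% of all genes, and within 50 kb 42 had one, against 48.2%. With each summit given to the nearest gene only, 19 of the 63 were counted, against 21.0% of all genes. With any base of the peak in place of the summit, 26 were counted, against 26.9%. Peaks of at least the median −log10 p were at 18 of the 63, against 14.8% of all genes, and those at or above the 75th percentile of the enrichment value at 12, against 6.89%. With RefSeq starts in place of gene ends, 19 of 53 genes had a summit within 5 kb, against 24.3%. The 95% exact interval of the share of the 63 genes covered that of all genes with the nearest gene only (19.2 to 43.0%), and that of the 53 genes did so with starts within 5 kb (23.1 to 50.2%).

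**Figure D2:**
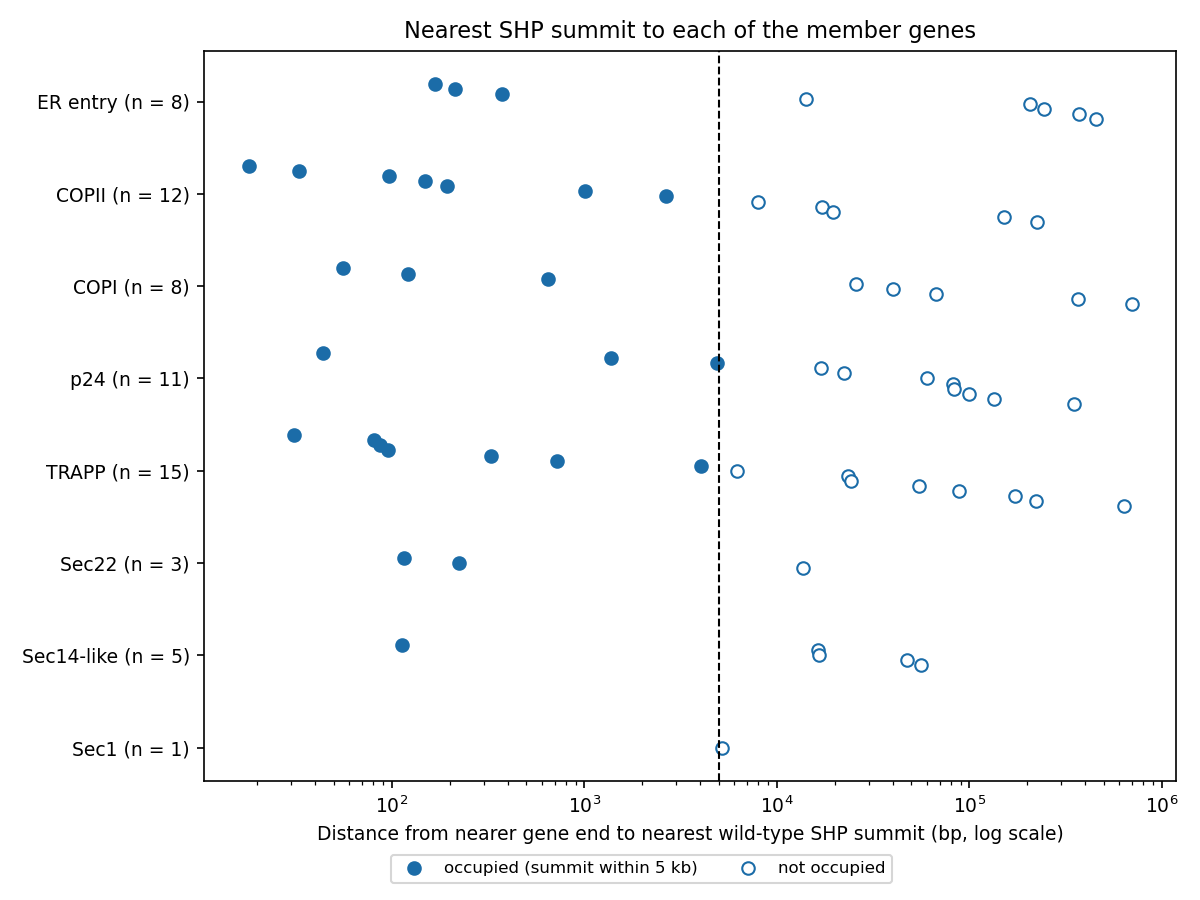
Distance in bp (x axis, log scale) from the nearer end of each of the 63 genes to the nearest WT SHP summit, by role. Filled circles are the 26 occupied genes and open circles the 37 others, the dashed line is the 5 kb limit, and vertical offsets only separate the points. Few genes lie near the limit, Tmed6 at 4901 bp and Sec1 at 5177 bp being the closest.

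Where the start of an occupied gene was in the RefSeq promoter table, the highest summit lay within 1 kb of that start in 18 of 23 genes (78.3%). For all occupied protein-coding genes the share was 3475 of 4663 (74.5%). All 18 peaks spanned the start of the gene, which is largely set by taking summits within 1 kb of it. The summits ran from 326 bp upstream to 680 bp downstream, with a median of 97.5 bp downstream, and 12 of the 18 were downstream. Those of 15 genes were within 250 bp of the start, and the others belonged to Trappc11, Sec62 and Sec24a. These positions were not counted for all occupied genes. Counting starts only, 19 of the 53 genes with a known start had a summit within 1 kb of one (35.8%), namely these 18 and Sec16b, against 22.1% of 17492 protein-coding genes.

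**Figure D3:**
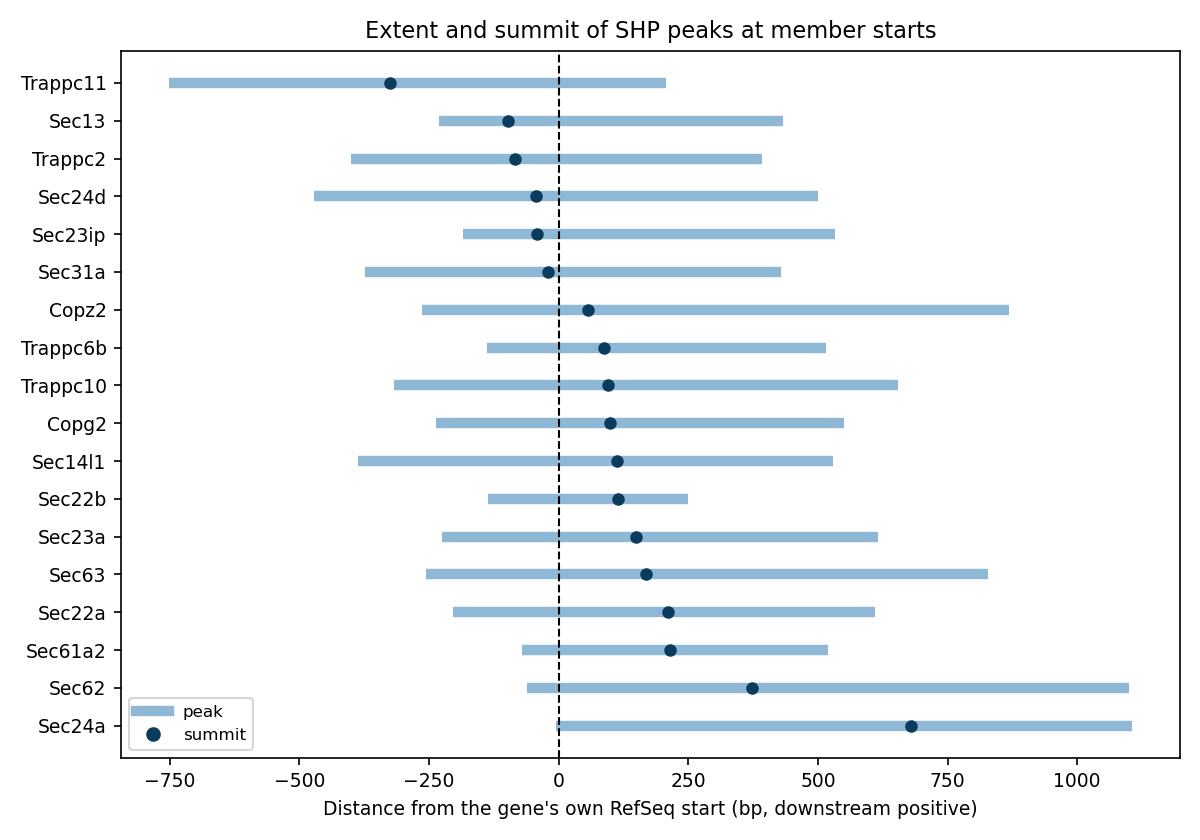
Extent (bars) and summit (dots) of the WT SHP peak at 18 genes, in bp from the gene's own RefSeq start (dashed line, downstream positive). All 18 bars cross the start, and the summits shift from 326 bp upstream at Trappc11 to 680 bp downstream at Sec24a.

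At the remaining 5 of those 23 genes, Copg1, Sec16a, Tmed6, Tmed10 and Trappc6a, the summit was over 1 kb from the gene's own start and nearer to the start of another protein-coding gene. That was 21.7% of 23, against 730 of 4663 occupied genes (15.7%). In all, 13 of the 26 summits were also within 5 kb of an end of another protein-coding gene, against 45.1% of all occupied genes. At Trappc2 and Trappc11 the neighbour's start was nearer to the summit than the gene's own, and both starts were within 1 kb of it. At Sec23a the start of Gemin2 was 1523 bp from the summit and at Sec23ip that of Mcmbp 4400 bp. The summits at Copg2, Sec13 and Sec61a2 were near the far ends of Tsga13, Atp2b2 and Dhtkd1, with the starts of these neighbours 18879, 150761 and 47574 bp away.

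The promoter windows, from 250 bases before to 50 bases after each RefSeq start, were searched on both strands for 11 motifs. Of the 63 genes, 53 had a start in the promoter table, and they had 58 windows, of which 19 had a summit within 1 kb of the start. The split is by window and not by occupied gene. The other 39 include windows of occupied genes such as Copg1 and Sec16a, and the 19 include the internal start of Sec16b. The GC box GGGCGG was in 15 of these 19 windows (78.9%) and in 20 of the other 39 (51.3%), against 76.2% of all 4475 occupied windows and 46.2% of all 21263 windows of protein-coding genes. The ETS motif CCGGAAG was in 7 of 19 (36.8%) and 9 of 39 (23.1%), against 807 of the 4475 occupied windows and 11.6% of all windows. The CCAAT box CCAAT was in 6 of 19 and 17 of 39, against 36.8% of all occupied and 38.2% of all windows. The median GC content was 62.3% in the 19 windows and 57.0% in the 39, against 65.7% in all occupied windows and 56.3% in all windows. The ETS share of the 19 rests on 7 windows, and the share of the 39 was also above that of all windows. The part of GC content in the motif shares was not tested.

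Rarer motifs were at a few genes. The E-box CACGTG, the core of the site bound by TFEB and its relatives, was in 3 of 19 windows (Sec23ip, Sec62 and Trappc10) and 4 of 39 (Sec22c, Tmed8, Tmed10 and Trappc5), against 11.4% of all occupied and 7.84% of all windows. Its extended palindrome TCACGTGA, which contains the E-box, was in 2 of 19 and 0 of 39, against 2.21% of all occupied and 1.23% of all windows. The element TGACGTGG, bound by XBP1 and ATF6 in the unfolded protein response, was in 2 of 19 (10.5%) and 3 of 39 (7.69%), against 0.76% of all occupied and 0.705% of all windows. The cyclic AMP element TGACGTCA, which shares its first letters with it, was at Cope only (3.66% of all occupied and 2.23% of all windows). The NRF1 site TGCGCATGC was at Sec24c and Sec61g (3.42% of all occupied and 1.98% of all windows). None of these 3 genes was among the 19 windows. Of the 58 windows, none matched the YY1 site AAGATGGCG (3.33% of all occupied and 1.83% of all windows). The same held for the site CAAGGTCA of the nuclear receptor LRH-1, a partner of SHP (0.961% and 1.34%). It also held for CCAAT and CCACG 9 bases apart, the ER stress element (0.201% and 0.141%). These matches describe letters and not binding.

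The stretches around the E-box palindrome are shown because TFEB is in the title of the study and both matches were under peaks. They are given on the strand of the gene with the motif in capitals (GRCm38.p6, from RefSeq), and were chosen after their occupancy was known. At Sec23ip the motif was 6 bp from the summit, and at Sec62 it was 398 bp from it.
Sec23ip, chr7:128744805-128744834, plus strand: gaccgaggctgTCACGTGAtaggcttgggt
Sec62, chr3:30792832-30792861, plus strand: gttgtgaggtgTCACGTGAggagcggacat

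The stretches around the unfolded protein response element are shown because they join genes of both coats, with and without a peak. The motif was 17 bp from the summit at Sec24d and 136 bp from it at Sec23a. At Copb1, Copb2 and the outer start of Sec16b the nearest summit was 740879, 391289 and 19486 bp from the motif. On the strand of Copb1 and Copb2 the motif reads in reverse, as CCACGTCA.
Sec24d, chr3:123267459-123267488, plus strand: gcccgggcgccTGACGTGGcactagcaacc
Sec23a, chr12:59011993-59012022, minus strand: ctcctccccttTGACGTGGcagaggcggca
Copb1, chr7:114254690-114254719, minus strand: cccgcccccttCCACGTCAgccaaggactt
Copb2, chr9:98563713-98563742, plus strand: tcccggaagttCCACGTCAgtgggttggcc
Sec16b, chr1:157506741-157506770, plus strand: ttctgtgtggcTGACGTGGcacggcagttt

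Other genes of vesicle transport and ER entry, listed by role, had a summit within 5 kb at 42 of 112 (37.5%, 28.5 to 47.1). The share was 41.3% for the 63 genes and 26.4% for all protein-coding genes. The 42 genes had a median enrichment value of 5.52. That median was 6.25 for the occupied genes of the 63 and 5.73 for all occupied protein-coding genes. These lists also take in clathrin, its adaptors and the exocyst, which lie outside the route between ER and Golgi described above. Partners of COPI had the highest share, 7 of 9, led by Arcn1 (8.56), which encodes the delta subunit missing from the Cop symbols, and the small GTPase genes Arf3 (6.26) and Arf5 (6.12). Clathrin and its adaptors had 11 of 21, led by Ap2s1 (8.03), Gga3 (6.74) and Gga1 (5.80). ER to Golgi SNAREs and their regulators had 6 of 12, led by Scfd1 (6.32), Bet1l (5.80) and Bnip1 (5.50). Proteins around the translocon had 4 of 9, led by Ssr4 (6.60) and Spcs3 (6.12), and the exocyst 3 of 9, led by Exoc2 (4.86).

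The remaining lists were at or below the share of all genes. Partners and cargo receptors of COPII had 4 of 17, led by Ergic1 (7.29), Preb (6.39) and Surf4 (5.76), and neither Sar1a nor Sar1b, the GTPases that start the COPII coat, was occupied. Golgins and other tethers had 4 of 17, led by Rint1 (7.47), Cog8 (5.88) and Gorasp2 (5.33). The signal recognition particle and its receptor had 2 of 8, Srp19 (6.37) and Srpr (6.25). The oligosaccharyltransferase, which adds sugars to proteins at the channel, had 1 of 10, Rpn2 (4.93). At Preb, Surf4 and Rint1 the summit was over 1 kb from the gene's own start.

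**Figure D4:**
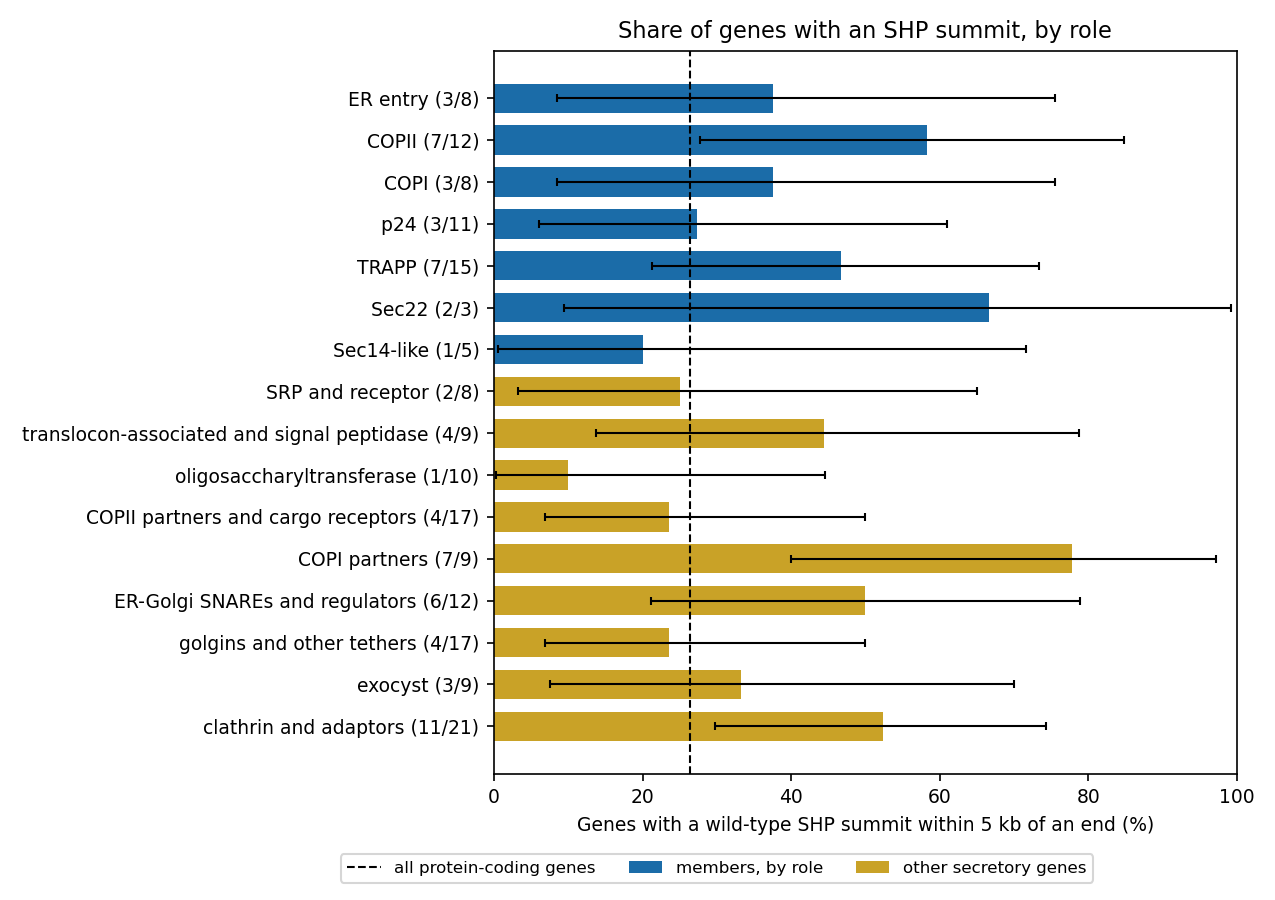
Share of genes (x axis, %) with a WT SHP summit within 5 kb of an end, for the members by role and for the other secretory genes, with the number occupied and the number of genes beside each name. Error bars are 95% exact binomial intervals, the dashed line is the share of all protein-coding genes (26.4%), and Sec1 alone is not drawn. The interval of COPI partners runs from 40.0 to 97.2%, and those of COPII and of clathrin and adaptors begin at 27.7 and 29.8%. The other 13 cover the dashed line. No allowance was made for the number of lists, which were chosen with earlier results known. The COPII count includes Sec16a, whose summit lies 19 bp from the start of Inpp5e. Within 1 kb of a gene end COPII had 5 of 12 (all genes 20.7%), and within 1 kb of a start 7 of 12 (all genes 22.1%). The count by starts leaves out Sec16a and takes in Sec16b through its internal start.

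Some values were shared exactly between peaks. Sec16a and Trappc2 had the same enrichment value and −log10 p (5.58 and 15.4), a pair found at 44 peaks of the list, and Sec24d and Tmed10 shared 6.52 and 18.1, found at 39 peaks. An order between genes with such values cannot be read from the list.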

How the data were processed

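The series has 4 samples, an SHP immunoprecipitation and an input for each genotype, and the peak lists of the 2 immunoprecipitations were used. CASAVA 1.4, the aligner BWA and the build mm10 are named per the submitters' processing notes. Which peak caller and control were used, and whether sets were pooled, is not given in the sources used here. The deposited lists have 10 columns and no header. The authors' deposited score ran from 89 to 122 in the SHP-KO list and from 540 to 1000 in the WT list. By their names the SHP-KO list was filtered for overlap and the WT list at an irreproducible discovery rate of 0.05. The enrichment value is the deposited signal of the seventh column, and the deposited −log10 p and −log10 q are those of the authors' peak caller. They were used only to describe or filter peaks within a list. Depth is unknown.

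Summits were converted to 1-based positions and set against the RefSeq gene ends of GRCm38.p6. A summit could count for several genes. Starts came from a promoter table that held 53 of the 63 genes. Of 113 names of other pathway genes 112 matched. Every one of the 63 genes is named. Promoters are shown for the highest value within 1 kb of the start in each role. The gene list, role lists and motifs were chosen with earlier results of these data known. Shares carry 95% exact (Clopper-Pearson) intervals for counting error. With 1 list per genotype no test was made. Alternatives changed the distance, the assignment of summits, the peak threshold and the gene end used. Python 3.11.15, pandas 2.3.3 and scipy 1.17.1 were used, and the counting step was tested on simulated data.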

Additional observations from a re-analysis of the deposited data

How the results depend on the processing

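The count of 26 occupied genes was 42 with summits within 50 kb and 12 with peaks at or above the 75th percentile of the enrichment value (6.46) and lay from 18 to 26 in the other alternatives. The starts-only count within 1 kb, 19 of 53, was a choice made after seeing the data. The share of the 63 genes, or of the 53 with a known start, was above that of all genes in each setting run, but its 95% interval covered that of all genes with the nearest gene only (19.2 to 43.0%, against 21.0%) and with starts within 5 kb (23.1 to 50.2%, against 24.3%). Within 1 kb Sec24a, Sec24d, Tmed6, Tmed10 and Trappc6a were lost, and with the nearest gene only Copg1, Sec16a, Tmed6, Tmed10, Trappc1, Trappc6a and Trappc11. The median enrichment value ran from 6.11 to 6.49 over its alternatives. No gene had an SHP-KO summit in either alternative run, which was fixed in advance because the nearest one was 1127114 bp away. No paired analysis was possible because each genotype had 1 list. Unknown depth limits any reading of a missing peak.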
